A study of Mus musculus with 9 samples.

Results

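The colony-stimulating factors and their receptors are 10 genes, chosen by symbol: the ligands Csf1, Csf2 and Csf3, the receptor chains Csf1r, Csf2ra, Csf2rb, Csf2rb2 and Csf3r, and the related receptor kinases Flt3 and Kit. All 10 were found among the 22376 genes of the deposited files, and 9 of them were among the 13740 genes abundant enough to be tested. They were measured by RNA sequencing in macrophages grown from the marrow of wild-type C57Bl/6 mice for 1 week in bags with 10 ng/ml recombinant M-CSF, the protein encoded by Csf1. The cells were then washed free of M-CSF, and 50000 were plated per well for 48 h. The wells received an antibody against PD-L1 at 100 µg/ml (libraries 1 to 3), an isotype-matched antibody without relevant target at 100 µg/ml (libraries 4 to 6) or no antibody (libraries 7 to 9). PD-L1 is a surface ligand of the inhibitory T cell receptor PD-1, and macrophages carry it. The labels name no growth factor added for the 48 h. Whether each well stands for its own animal or culture is not stated, and the p-values therefore describe well-to-well spread that may be purely technical.

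M-CSF (Csf1) binds the receptor kinase CSF1R and is the factor that keeps macrophages alive and drives their growth from marrow. GM-CSF (Csf2) binds a specific alpha chain (Csf2ra) that signals only with a beta chain shared with the receptors of interleukin 3 and interleukin 5 (Csf2rb); the mouse has a near copy of that chain, Csf2rb2, which serves interleukin 3. G-CSF (Csf3) binds CSF3R and is best known for driving neutrophil production, and FLT3 and KIT, which belong to the same kinase family as CSF1R, are known chiefly from progenitors, dendritic cells and mast cells.

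Each library held 23554320 to 40116467 exonic read equivalents, a measure built from the deposited coverage in which 1 unit stands for 1 read of 150 bases within exons. Levels are given as CPM, read equivalents per 1000000 after scaling between libraries, and fold changes are differences of log2(CPM + 1), a scale on which changes of low genes come out too small. Calls rest on limma's moderated test with Benjamini-Hochberg adjustment over all tested genes and a threshold of 0.05, and errors of means are SD with n = 3. A signal of 3 reads, taken as the floor of detection for counting error alone, stood at 0.0742 to 0.134 CPM. The 8 macrophage markers examined, which include Csf1r, summed to 17710 to 25250 CPM per library, and all 8 were present in every library, among them Adgre1, which encodes F4/80, and Lyz2. The 7 T and NK cell markers analysed summed to at most 5.98 CPM in any library. The library untreated 7 stood apart from untreated 8 and 9 in several of the genes below, lying near the antibody-treated libraries, so results that rest on it are given with and without it. By the deposited names, lane 4 held PD-L1 antibody 2, and lane 1 held the other libraries. RNA was taken from whole wells, so fewer cells expressing a gene and less RNA per cell cannot be told apart.

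On a scale per exon length (RPKM), the receptor of M-CSF was by far the most abundant of the 10 genes. Csf1r averaged 750.0 RPKM in PD-L1 antibody wells, 709.9 RPKM in isotype antibody wells and 695.5 RPKM in untreated wells, above at least 99.5% of tested genes in every group. Csf2rb (266, 253 and 195 RPKM in the same order), Csf2rb2 (212, 238 and 187 RPKM) and Csf2ra (165, 191 and 224 RPKM) followed as a cluster. Csf2ra led this cluster in untreated wells and came last in it with either antibody. Within it the library ranges of neighbouring genes overlapped in every group except for Csf2rb2 over Csf2ra with the isotype antibody. Csf3r came next, at 39.7, 28.0 and 27.3 RPKM, and Csf1 after it, at 12.5, 8.78 and 7.19 RPKM. Flt3 (2.43, 4.25 and 3.62 RPKM) and Kit (2.20, 3.21 and 2.96 RPKM) were low, with overlapping ranges between the 2 genes in the PD-L1 antibody and untreated libraries, and Csf1 also overlapped Flt3 in untreated wells. Csf3 and Csf2 were lowest. Their ranges overlapped in isotype antibody wells as well as in untreated wells, while with the PD-L1 antibody Csf3 lay clear of Csf2 and overlapped Kit.

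**Figure D1:**
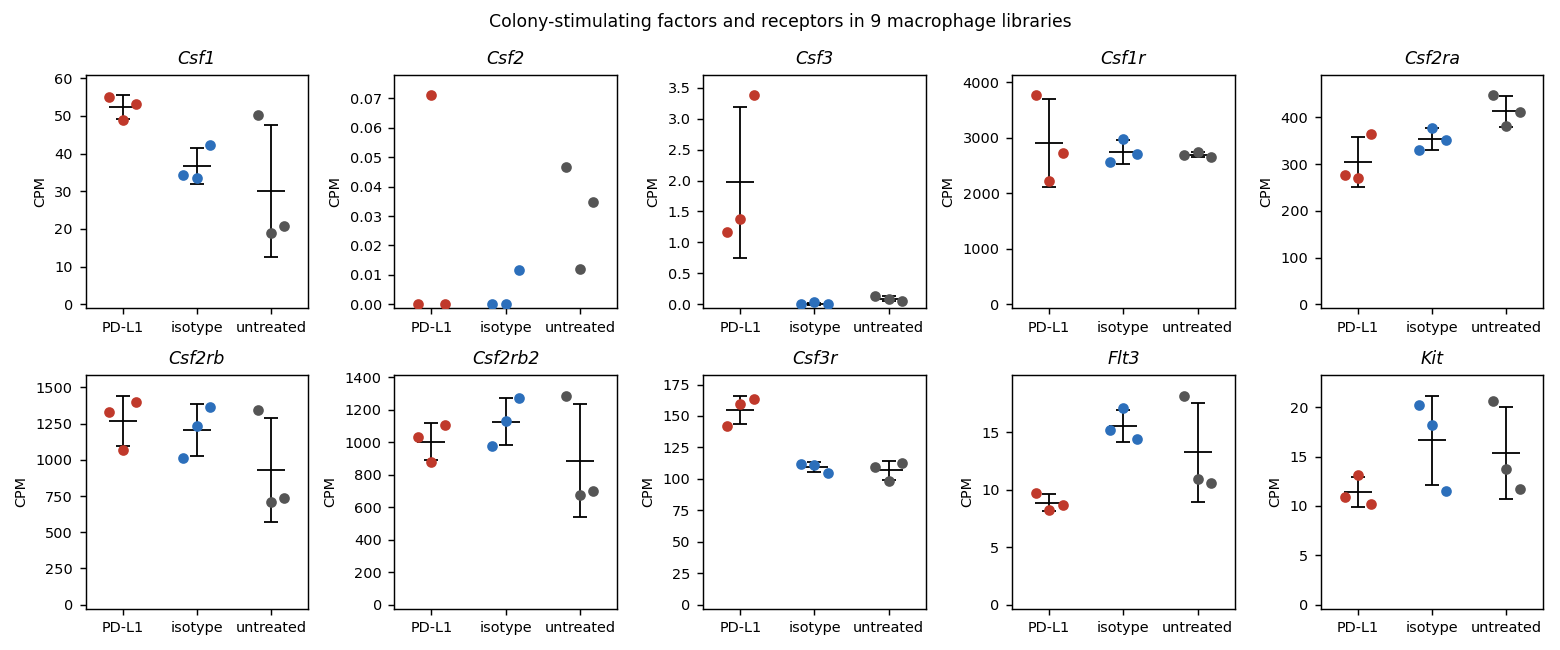
Level of each of the 10 genes in CPM (vertical axes, each from its own 0) in the 9 libraries. Points are libraries in PD-L1 antibody, isotype antibody and untreated wells, and bars are mean ± SD, left out for Csf2, whose values all lie under the floor of 3 reads. Csf3 and Csf3r stand highest and Flt3 lowest in the 3 PD-L1 antibody libraries, and untreated 7 (first untreated point) lies above untreated 8 and 9 for Csf1, both beta chains, Flt3 and Kit.

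Among the ligands, G-CSF transcript was clearly measured in the PD-L1 antibody wells alone, with at most 3.4 read equivalents in any other library. Csf3 (chr11:98701313-98703629 on the plus strand of GRCm38) had 1.16, 1.38 and 3.38 CPM in the 3 PD-L1 antibody libraries, against 0, 0.0311 and 0 CPM in the isotype antibody libraries and 0.136, 0.0898 and 0.0495 CPM in untreated wells. In read equivalents these are 41.6, 31.0 and 81.9 with the PD-L1 antibody, 0, 0.82 and 0 with the isotype antibody, and 3.4, 2.67 and 2.0 in untreated wells. The groups did not overlap, and all isotype antibody libraries lay under the floor, as did untreated 8 and 9. The reads of the PD-L1 antibody wells were spread over the gene: 99.0%, 96.6% and 97.5% of the exonic bases of Csf3 were covered at least once there, against 9.02% in isotype antibody 5 and 28.4%, 20.2% and 17.1% in untreated wells. On the log2(CPM + 1) scale Csf3 rose by 1.48 (SE 0.22, limma adjusted p = 0.000395) with the PD-L1 antibody over the isotype antibody, and by 1.37 (SE 0.22, limma adjusted p = 0.000581) over untreated wells. Csf3 was abundant enough to be tested only through the PD-L1 antibody wells, so these tests are no independent support for the difference. The size of these differences depended on the pseudocount and the tool. Over the isotype antibody the value was 2.17 with a pseudocount of 0.5 CPM, 4.09 with 0.1 CPM, and 4.87 (edgeR, adjusted p = 0.0489) or 4.94 (DESeq2, adjusted p = 0.00133) on the deposited reads over the whole gene span, introns included. Over untreated wells it was 1.96 and 3.31 with those pseudocounts and 3.08 with DESeq2 (adjusted p = 0.0482). No fold of the levels is given, because the isotype antibody wells held under 1 read equivalent in all. The call against untreated wells was lost when the span reads were tested with edgeR (log2 fold change 3.08, adjusted p = 0.14).

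Csf1, the M-CSF gene, had its highest mean with the PD-L1 antibody, and its called rise was against untreated wells. The gene (chr3:107741048-107760469, minus strand) had 55.0, 48.8 and 53.0 CPM in the PD-L1 antibody libraries, against 34.2, 33.5 and 42.3 CPM with the isotype antibody and 50.3, 19.0 and 20.8 CPM in untreated wells. The PD-L1 and isotype antibody libraries did not overlap, while untreated 7 lay within the PD-L1 antibody range and untreated 8 and 9 lay well under all antibody-treated wells. Over untreated wells Csf1 rose by 0.92 (SE 0.28, limma adjusted p = 0.0211), and over isotype antibody wells the difference of 0.51 (SE 0.28) did not pass (limma adjusted p = 0.186). The fit shares its estimate of spread over all groups, and both adjusted p-values were lower without untreated 7. Without that library the log2 difference was 1.35 over untreated wells (limma adjusted p = 1.49e-06) and 0.50 over isotype antibody wells (limma adjusted p = 0.00124), and with only the PD-L1 and isotype antibody libraries in the fit the difference also passed (0.51, limma adjusted p = 0.00206). The call over untreated wells was lost without PD-L1 antibody 1 (log2 fold change 0.88), PD-L1 antibody 3 (0.91), untreated 8 (0.67) or untreated 9 (0.73), and also with total-count scaling (adjusted p = 0.0541), without the filter on low genes (0.0762) and with edgeR on span reads (0.1).

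Csf1 is listed with 3 transcripts, of which 1 ends earlier at its 3′ end and so spans less of the gene. The share of Csf1 reads within that shorter span, a comparison chosen after its values were seen, was 56.5 ± 1.7% in PD-L1 antibody wells, 58.4 ± 2.0% in isotype antibody wells and 55.3 ± 1.9% in untreated wells. By two-sided exact permutation tests (n = 3 each) the PD-L1 antibody share gave p = 0.4 against the isotype antibody and p = 0.5 against untreated wells, where the smallest p that 3 against 3 allows is 0.1. The GM-CSF gene Csf2 (chr11:54247270-54249899, minus strand) was at or below 1.59 read equivalents in every library and at 0 in PD-L1 antibody 1 and 3 and in isotype antibody 4 and 5. That is under the floor of 3 reads throughout, so no difference was detectable at this depth. An antisense gene, Gm12223, overlaps exons of Csf2, and without strand the few reads cannot be assigned to either.

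Of the receptors, the one for G-CSF rose, as its ligand gene did. Csf3r, the G-CSF receptor gene (chr4:126024659-126044975, plus strand), had 142, 160 and 163 CPM in the PD-L1 antibody libraries, against 112, 111 and 105 CPM with the isotype antibody and 110, 98.1 and 112 CPM in untreated wells. Every PD-L1 antibody library lay above all 6 others, and the 2 other groups overlapped. Csf3r rose by 0.50 on the log2 scale (SE 0.082, limma adjusted p = 0.00072) over isotype antibody wells and by 0.53 (SE 0.082, limma adjusted p = 0.000398) over untreated wells, with ratios of mean CPM of 1.42 and 1.45. Both calls held under all 19 alternatives in each comparison, with log2 fold changes of 0.32 to 0.56 and 0.39 to 0.59. CSF3R is an abundant receptor of neutrophils. The 12 neutrophil and granulocyte precursor markers summed to 364 to 509 CPM in PD-L1 antibody wells, 688 to 1288 CPM in isotype antibody wells and 520 to 718 CPM in untreated wells. Of 11 tested, 0 rose and 5 fell with the PD-L1 antibody against the isotype antibody, beside 18.2% and 18.2% of all tested genes. Against untreated wells 1 rose and 7 fell, beside 22.0% and 20.5% of all tested genes. The marker Retnlg averaged 0.0714 CPM with the PD-L1 antibody, 1.12 CPM with the isotype antibody and 1.19 CPM in untreated wells. It was abundant enough to be tested only through the wells without the PD-L1 antibody, so it could be called only as falling. The mature neutrophil marker Ly6g stayed at or under 0.322 CPM in every library. The part of these cells in the Csf3r values was not tested.

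For the M-CSF receptor no difference passed. Csf1r had 3765, 2220 and 2734 CPM with the PD-L1 antibody, against 2562, 2983 and 2708 CPM in isotype antibody wells and 2683, 2748 and 2655 CPM in untreated wells. The PD-L1 antibody libraries held both the highest and the lowest of the 9 values. The log2 difference was 0.05 (SE 0.17, limma adjusted p = 0.859) against the isotype antibody and 0.07 (SE 0.17, limma adjusted p = 0.757) against untreated wells, and its sign turned in both when libraries were scaled by total counts (-0.13 and -0.08), a scaling that moved the median of all genes to -0.157 and -0.134, or without PD-L1 antibody 1 (-0.16 and -0.13). Per length, Csf1r transcript exceeded that of its ligand Csf1 by 59.5 ± 13 times with the PD-L1 antibody, 81.9 ± 13 times in isotype antibody wells and 117 ± 52 times in untreated wells. Those ratios overlapped between groups, and two-sided exact permutation tests gave p = 0.2 for the PD-L1 antibody against either other group. The overlap with untreated wells came from untreated 7, at 57.5, while untreated 8 and 9 stood at 156 and 137.

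**Figure D2:**
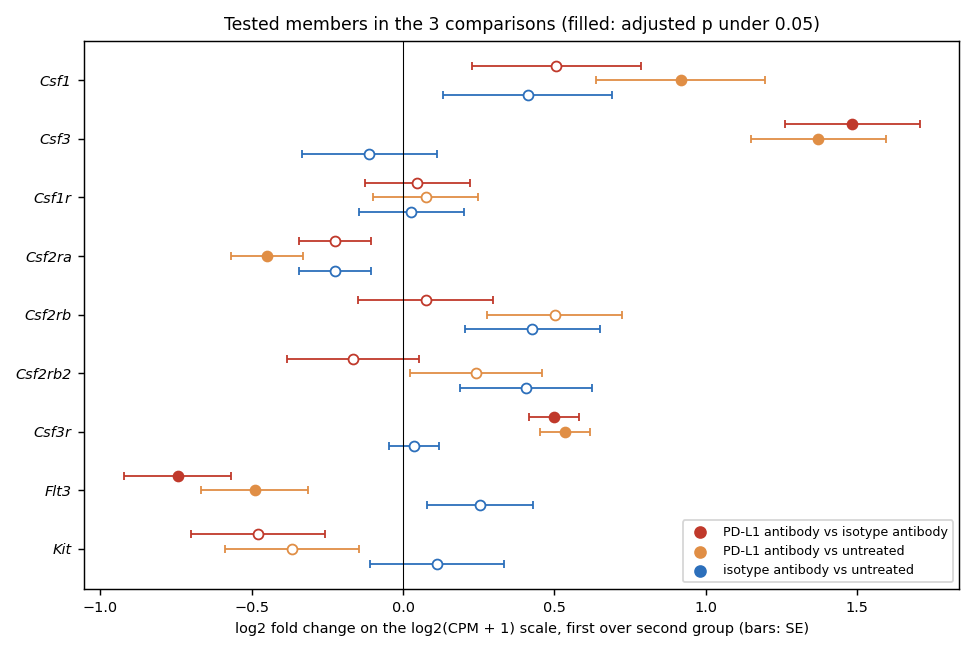
Log2 fold change on the log2(CPM + 1) scale (horizontal axis) of the 9 tested genes, with bars of 1 SE, for the PD-L1 antibody over the isotype antibody, the PD-L1 antibody over untreated wells and the isotype antibody over untreated wells. Filled points have a limma adjusted p under 0.05: Csf3, Csf3r and Flt3 in both PD-L1 antibody comparisons, Csf1 and Csf2ra only against untreated wells, and none for the isotype antibody.

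Of the GM-CSF receptor chains, the alpha chain gene was the only one called, and only against untreated wells. Csf2ra (chr19:61224402-61228418, minus strand) had 277, 271 and 365 CPM with the PD-L1 antibody, against 331, 378 and 351 CPM in isotype antibody wells and 447, 381 and 412 CPM in untreated wells. Its PD-L1 antibody libraries all lay under the untreated ones, and so did the isotype antibody libraries, which overlapped those of the PD-L1 antibody. Csf2ra fell by 0.45 on the log2 scale (SE 0.12, limma adjusted p = 0.0102) with the PD-L1 antibody against untreated wells, a call that held under all 19 alternatives. Against the isotype antibody the difference of -0.23 (SE 0.12) did not pass (limma adjusted p = 0.164), and it passed with total-count scaling (-0.40, adjusted p = 0.0209, beside a median of -0.157 for all genes) or without PD-L1 antibody 3 (-0.36, adjusted p = 0.0189).

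The common beta chain gene Csf2rb had 1333, 1070 and 1401 CPM with the PD-L1 antibody, against 1015, 1234 and 1368 CPM in isotype antibody wells and 1343, 711 and 737 CPM in untreated wells. Its near copy Csf2rb2, the interleukin 3 specific beta chain of the mouse, had 1031, 878 and 1104 CPM with the PD-L1 antibody, against 979, 1130 and 1272 CPM in isotype antibody wells and 1287, 673 and 698 CPM in untreated wells. In both genes untreated 7 matched the antibody-treated wells and untreated 8 and 9 lay below every other library. Neither gene passed in any comparison (limma adjusted p = 0.828 and 0.599 against the isotype antibody, 0.0926 and 0.4 against untreated wells, for Csf2rb and Csf2rb2 in that order). Without untreated 7, both were higher than in untreated wells with the PD-L1 antibody, by 0.80 (limma adjusted p = 0.000656) for Csf2rb and 0.54 (limma adjusted p = 0.00385) for Csf2rb2. The same held with the isotype antibody, by 0.72 (limma adjusted p = 0.00676) and 0.71 (limma adjusted p = 0.00443).

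The 2 beta chain genes lie close together on chromosome 15 in opposite orientation, at chr15:78325990-78351001 on the plus strand (Csf2rb) and chr15:78282508-78305721 on the minus strand (Csf2rb2) of GRCm38. Their coding sequences were identical at 2503 of 2628 aligned positions, or 95.2%, so that the counting could in principle split reads between them. Only 3.6% of all stretches of 150 bases, the read length, were shared letter for letter between their transcripts. A microRNA gene on the same strand, Mir7676-2 or Mir7676-1, overlaps exons of each. The first 90 coding bases are shown because they let the degree of likeness be seen directly: they differ at 3 positions, the median number for such stretches, and those positions are in capitals. They are interrupted by an intron, at chr15:78335207-78336349 for Csf2rb and chr15:78297101-78298229 for Csf2rb2, and were taken from GENCODE transcripts.
Csf2rb: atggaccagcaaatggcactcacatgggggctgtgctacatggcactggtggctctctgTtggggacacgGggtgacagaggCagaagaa
Csf2rb2: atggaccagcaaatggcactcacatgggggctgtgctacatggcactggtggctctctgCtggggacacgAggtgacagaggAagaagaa

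Within each library the balance between these chains leaned farthest to Csf2rb with the PD-L1 antibody. The ratio of Csf2rb to Csf2rb2 CPM was 1.29, 1.22 and 1.27 in the PD-L1 antibody libraries, against 1.04, 1.09 and 1.08 with the isotype antibody and 1.04, 1.06 and 1.06 in untreated wells. Every PD-L1 antibody library lay above all 6 others, including untreated 7, whose ratio was that of the other untreated wells although both of its chains were higher. The means were 1.26 ± 0.038 in PD-L1 antibody wells, 1.07 ± 0.029 in isotype antibody wells and 1.05 ± 0.0077 in untreated wells. Two-sided exact permutation tests gave p = 0.1 for the PD-L1 antibody against each of the others (n = 3 each), the smallest value this design can reach, and p = 0.5 between isotype antibody and untreated wells. This ratio was chosen after the values were seen, and how the authors' alignment treated reads that match both genes is not given in the sources used here. Summed, the beta chains came to 2273 ± 289 CPM in PD-L1 antibody wells, 2333 ± 324 CPM in isotype antibody wells and 1817 ± 705 CPM in untreated wells, with no call in any comparison (limma adjusted p = 0.918 for the PD-L1 over the isotype antibody and 0.199 over untreated wells).

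Set against both beta chains per length, the alpha chain Csf2ra stood at 0.345 ± 0.038 in PD-L1 antibody wells, 0.393 ± 0.045 in isotype antibody wells and 0.627 ± 0.17 in untreated wells. The PD-L1 antibody values (0.302 to 0.375) and the untreated values (0.437 to 0.738) did not overlap, and a two-sided exact permutation test gave p = 0.1, its smallest value. The PD-L1 and isotype antibody values overlapped (exact permutation p = 0.3). The isotype antibody values (0.342 to 0.427) also lay under all untreated ones, with the same smallest exact permutation p = 0.1. Among the untreated wells, untreated 7 stood at 0.437 and untreated 8 and 9 at 0.707 and 0.738. Il3ra, the alpha chain of the interleukin 3 receptor that pairs with the same beta chains, had 49.4 ± 4.55 CPM in PD-L1 antibody wells, 52.7 ± 7.48 CPM in isotype antibody wells and 77.0 ± 8.36 CPM in untreated wells. It fell by 0.63 on the log2 scale (limma adjusted p = 0.00159) with the PD-L1 antibody against untreated wells, and its difference of -0.54 for the isotype antibody did not pass (limma adjusted p = 0.345). Il5ra, the interleukin 5 alpha chain, stayed at or under 0.542 CPM.

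**Figure D3:**
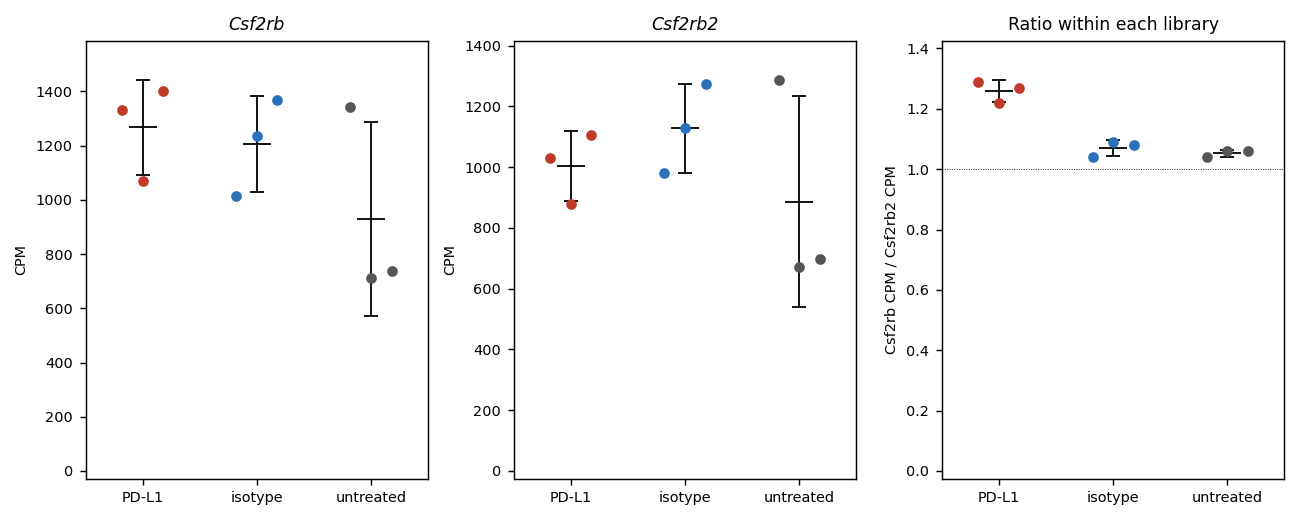
CPM of Csf2rb (left) and Csf2rb2 (middle) and the ratio of their CPM within each library (right, dotted line at 1). Points are libraries, and bars are mean ± SD of the 3 libraries of PD-L1 antibody, isotype antibody and untreated wells. The ratio is 1.22 to 1.29 with the PD-L1 antibody and 1.04 to 1.09 in the 6 other libraries, while the CPM of each gene overlaps between groups.

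The gene of FLT3, the receptor that guides dendritic cell development from progenitors, fell with the PD-L1 antibody. Flt3 (chr5:147330742-147400489, minus strand) had 9.70, 8.23 and 8.69 CPM with the PD-L1 antibody, against 15.2, 17.1 and 14.4 CPM with the isotype antibody and 18.2, 10.95 and 10.6 CPM in untreated wells. All PD-L1 antibody libraries lay under all 6 others, narrowly so under untreated 8 and 9. Flt3 fell by 0.74 on the log2 scale (SE 0.18, limma adjusted p = 0.00669) against isotype antibody wells, a call kept under all 19 alternatives, with adjusted p of 0.000133 to 0.0325. Against untreated wells it fell by 0.49 (SE 0.18, limma adjusted p = 0.0434), but only 8 of 19 alternatives kept that call. Without untreated 7 the difference was -0.26 (limma adjusted p = 0.0907), a move of over 1.5 times, and leaving out any 1 of the 6 antibody-treated libraries also ended the call. The 7 dendritic cell markers summed to 395 to 452 CPM with the PD-L1 antibody, 305 to 521 CPM in isotype antibody wells and 260 to 501 CPM in untreated wells. Most of that sum is Ccr7, which activated macrophages can also express. Of the 7, 1 rose and 3 fell with the PD-L1 antibody against the isotype antibody, and 2 rose and 3 fell against untreated wells. Over all tested genes 18.2% rose and 18.2% fell in the first comparison, and 22.0% and 20.5% in the second. In PD-L1 antibody, isotype antibody and untreated wells, in that order, the plasmacytoid marker Siglech averaged 1.81, 7.62 and 5.65 CPM, Cd209a 0.0526, 1.76 and 1.12 CPM and Clec9a 0.0923, 1.25 and 1.66 CPM. With the PD-L1 antibody Cd209a and Clec9a averaged near or under the floor. They were abundant enough to be tested only through the other wells, so they could be called only as falling. Other members had their highest mean with the PD-L1 antibody: Xcr1 averaged 3.15, 0.699 and 0.597 CPM, Itgae 0.654, 0.323 and 0.178 CPM and Zbtb46 6.35, 5.18 and 4.15 CPM in the same order. The part of these cells in the Flt3 values was not tested.

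KIT, the stem cell factor receptor, stood at a similar low level. Kit (chr5:75574987-75656721, plus strand) had 10.9, 13.1 and 10.2 CPM with the PD-L1 antibody, against 20.2, 18.2 and 11.6 CPM with the isotype antibody and 20.6, 13.7 and 11.7 CPM in untreated wells. The groups overlapped, and isotype antibody 6 and untreated 9 lay among the PD-L1 antibody values. The log2 difference was -0.48 (SE 0.22, limma adjusted p = 0.117) against the isotype antibody and -0.37 (SE 0.22, limma adjusted p = 0.208) against untreated wells. The first passed with total-count scaling (-0.64, adjusted p = 0.0432), without isotype antibody 6 (-0.71, adjusted p = 0.0268) or without untreated 7 (-0.48, adjusted p = 0.0438). Without untreated 7 the difference against untreated wells shrank to -0.15 (limma adjusted p = 0.566). The 7 mast cell markers summed to 29.7 to 34.7 CPM with the PD-L1 antibody, 11.4 to 24.3 CPM with the isotype antibody and 12.5 to 16.8 CPM in untreated wells. Most of this was Hdc, whose enzyme makes histamine, while the mast cell proteases Mcpt4, Tpsb2 and Tpsab1 were at or under 0.0839 CPM throughout. Of the 4 tested markers, 1 rose and 0 fell against the isotype antibody, beside 18.2% and 18.2% of all tested genes. Of 7 progenitor markers 6 were tested. With the PD-L1 antibody 1 rose and 2 fell against the isotype antibody, beside 18.2% and 18.2% of all tested genes. The sum of the 7 was 773 to 820 CPM with the PD-L1 antibody, 325 to 481 CPM in isotype antibody wells and 182 to 493 CPM in untreated wells, and it was mostly Ly6a. The part of these cells in the Kit values was not tested.

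Of the ligands of these kinases, Kitl was called lower. Kitl, which encodes stem cell factor, had 7.61, 17.7 and 7.29 CPM with the PD-L1 antibody, against 24.2, 24.6 and 35.7 CPM with the isotype antibody and 27.2, 23.3 and 21.9 CPM in untreated wells. It fell by 1.38 on the log2 scale (SE 0.27, limma adjusted p = 0.00221) against the isotype antibody and by 1.18 (SE 0.27, limma adjusted p = 0.00489) against untreated wells, with no overlap, although PD-L1 antibody 2 stood well above the other PD-L1 antibody libraries. Stem cell factor is also made by stromal cells, whose 8 markers summed to 33.6 to 53.4 CPM with the PD-L1 antibody, 23.8 to 37.8 CPM with the isotype antibody and 32.5 to 61.8 CPM in untreated wells. Of 7 stromal markers tested, 3 rose and 0 fell against the isotype antibody, beside 18.2% and 18.2% of all tested genes. Against untreated wells 1 rose and 1 fell, beside 22.0% and 20.5% of all tested genes. The part of stromal cells in the Kitl values was not tested. Flt3l, the FLT3 ligand gene, averaged 7.20 ± 0.578 CPM in PD-L1 antibody wells, 5.97 ± 0.292 CPM in isotype antibody wells and 6.23 ± 0.569 CPM in untreated wells and did not pass (limma adjusted p = 0.138 and 0.227). Il34, which encodes the other ligand of CSF1R, was too low to be tested, at 0.336 ± 0.129 CPM in PD-L1 antibody wells, 0.120 ± 0.112 CPM in isotype antibody wells and 0.131 ± 0.115 CPM in untreated wells.

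Csf3r and Flt3 are the receptor genes that rose and fell in both PD-L1 antibody comparisons, and the 250 bases before their starts are shown for that reason, from RefSeq on GRCm38.p6. Of the 10 genes, 7 had a promoter entry in that table. The Csf3r promoter is at chr4:126024409-126024658 on the plus strand, and the Flt3 promoter at chr5:147400490-147400739 on the minus strand. Both strands were searched for GGGNNNNNCC (a kappa-B-like pattern), TGANTCA (AP-1), GAGGAA (the core bound by PU.1, which drives myeloid receptor genes) and TTCNNNGAA (STAT), and matches are in capitals.
Csf3r: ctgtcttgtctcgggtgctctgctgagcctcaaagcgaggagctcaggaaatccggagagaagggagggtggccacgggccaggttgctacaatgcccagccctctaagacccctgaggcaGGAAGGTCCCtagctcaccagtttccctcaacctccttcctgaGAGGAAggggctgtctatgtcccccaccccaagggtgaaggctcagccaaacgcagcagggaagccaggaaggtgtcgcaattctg
Flt3: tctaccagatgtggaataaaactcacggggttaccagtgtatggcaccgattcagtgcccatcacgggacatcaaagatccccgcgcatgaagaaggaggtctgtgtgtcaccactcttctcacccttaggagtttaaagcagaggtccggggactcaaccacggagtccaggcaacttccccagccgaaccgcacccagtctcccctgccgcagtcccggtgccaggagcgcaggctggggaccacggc

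The Csf3r promoter held 1 GAGGAA match, from 86 to 81 bases before the start, and 1 kappa-B-like match, from 129 to 120 bases before it, with no overlap between them. Flt3 had none of the 4 patterns in these letters. Among 32536 promoters of the same length, 23.4% held GAGGAA, 46.0% the kappa-B-like pattern, 6.7% the AP-1 pattern and 7.0% the STAT pattern. Among the other entries Csf1 held 4 kappa-B-like matches, 2 of them overlapping, and no GAGGAA, Csf2ra held 2 overlapping kappa-B-like and 2 GAGGAA matches, and Csf2rb2 1 GAGGAA and 1 STAT match. Kit, which was not called, held 1 kappa-B-like and 1 GAGGAA match, as Csf3r did, and Csf2 held none of the 4 patterns. These matches describe letters and not bound sites.

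Counted together, the share of these genes called was near that of all genes. With the PD-L1 antibody against the isotype antibody 3 of 9 tested genes were called (33.3%), 2 higher and 1 lower, beside 36.4% of all 13740 tested genes, 18.2% higher and 18.2% lower. The libraries of 4 of 9 did not overlap between those groups, beside 52.1% of all genes. Against untreated wells 5 of 9 were called (55.6%), 3 higher and 2 lower, beside 42.4% of all genes, 22.0% higher and 20.5% lower, and 4 of 9 did not overlap, beside 51.2%. The median log2 difference of the 9 was 0.05 against the isotype antibody and 0.24 against untreated wells, and that of all tested genes -0.015 and -0.011. Both comparisons share the PD-L1 antibody libraries. In each, the called and the non-overlapping genes include Csf3, which was abundant enough to be tested only through those libraries. The even split of directions over all genes depended on the scaling: with total counts 1565 genes were higher and 4142 lower against the isotype antibody, where TMM scaling gave 2495 and 2500, and 1940 were higher and 4088 lower against untreated wells, where it gave 3017 and 2814. With the isotype antibody against untreated wells 0 of 9 were called by limma, beside 0.00728% of all genes (1 gene, with 1747 at an unadjusted p under 0.05), and 2 of 9, Csf2ra and Csf3, did not overlap, beside 13.2%. That comparison too turned on untreated 7: without it 4 of the 9 were called, all higher with the isotype antibody (Csf1 by 0.84, Csf2rb by 0.72, Csf2rb2 by 0.71 and Flt3 by 0.49), among 2295 genes in all. The lack of overlap of Csf3 there rests on at most 0.82 read equivalents with the isotype antibody and at most 3.4 in untreated wells. Only untreated 7 lay above the floor of 3 reads, so that difference cannot be read.

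Of 29 genes of proximal signalling (kinases, adaptors, phosphatases and STAT factors), 14 rose and 4 fell against the isotype antibody, with a median log2 difference of 0.25, and 17 rose and 2 fell against untreated wells, with a median of 0.33. Over all tested genes 18.2% rose and 18.2% fell in the first comparison, and 22.0% and 20.5% in the second. Jak2, the kinase bound to the beta chain, had 289, 294 and 329 CPM with the PD-L1 antibody, against 95.7, 87.8 and 83.0 CPM with the isotype antibody (log2 fold change 1.76, SE 0.13, limma adjusted p = 2.08e-06). Pik3cg, a catalytic PI3 kinase subunit, averaged 115 ± 8.84 CPM in PD-L1 antibody wells and 63.5 CPM in isotype antibody wells (log2 fold change 0.85, limma adjusted p = 2.54e-05). With total-count scaling the counts were 10 higher and 6 lower against the isotype antibody and 13 higher and 5 lower against untreated wells. Of all genes that scaling gave 1565 higher and 4142 lower in the first comparison, and 1940 and 4088 in the second. Without untreated 7 the counts against untreated wells were 20 higher and 2 lower, beside 3443 and 3323 of all genes.

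Of 12 feedback and STAT5 target genes, 8 rose and 0 fell against the isotype antibody (median 0.56). Against untreated wells 9 rose and 0 fell (median 0.55). With total-count scaling 7 rose in the first comparison and 6 in the second, beside 1565 and 1940 of all genes. In both of these 0 fell, beside 4142 and 4088 of all genes. Without untreated 7, 9 rose and 1 fell against untreated wells, beside 3443 and 3323 of all genes. Socs3, which limits signalling of CSF3R and related receptors, had 443, 420 and 654 CPM with the PD-L1 antibody, against 24.5, 24.8 and 20.8 CPM with the isotype antibody (log2 fold change 4.35, SE 0.15, limma adjusted p = 1.31e-08). Socs1, an inhibitor of JAK kinases, rose by 1.92 (limma adjusted p = 5.47e-05), and Ccnd2, a cyclin of cell cycle entry, by 2.73, at 189 ± 20.4 CPM in PD-L1 antibody wells and 27.6 CPM in isotype antibody wells (limma adjusted p = 6.03e-05). Socs1 averaged 48.1 CPM in PD-L1 antibody wells, 11.7 CPM in isotype antibody wells and 19.1 CPM in untreated wells. Its rise over untreated wells was smaller, at 1.24 (limma adjusted p = 0.00102). Across all tested genes 18.2% rose against the isotype antibody and 22.0% against untreated wells, and many of these genes also serve interferon and interleukin receptors.

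Of 11 transcription factors known to act on these receptor genes, 3 rose and 2 fell against the isotype antibody (median 0.10), and 4 rose and 3 fell against untreated wells (median -0.05). The counts of the first comparison lie near the shares of all tested genes, of which 18.2% rose and 18.2% fell. Those of the second lie somewhat above the shares of 22.0% and 20.5%, for a list of only 11 genes. With total-count scaling the median against the isotype antibody changed sign, to -0.08, with 3 higher and 3 lower. That scaling moved the median of all genes to -0.157, with 1565 higher and 4142 lower. Against untreated wells it gave 3 higher and 4 lower, beside 1940 and 4088 of all genes. Without untreated 7, 3 rose and 3 fell against untreated wells, beside 3443 and 3323 of all genes. Cebpa, which activates Csf3r and granulocytic genes, had 118, 116 and 122 CPM with the PD-L1 antibody, against 502, 531 and 363 CPM with the isotype antibody, a fall of 1.94 on the log2 scale (SE 0.20, limma adjusted p = 2.36e-05). Its relative Cebpb averaged 777 ± 231 CPM in PD-L1 antibody wells, 274.1 CPM in isotype antibody wells and 479.1 CPM in untreated wells. With the PD-L1 antibody Cebpb rose by 1.5 over the isotype antibody (limma adjusted p = 0.00098) and by 0.70 over untreated wells (limma adjusted p = 0.0492). The log2 difference of the isotype antibody from untreated wells was -0.80, which was not called (limma adjusted p = 0.348). Ets2, a factor downstream of CSF1R signalling, averaged 108 ± 26.1 CPM in PD-L1 antibody wells and 23.8 CPM in isotype antibody wells (2.11, limma adjusted p = 1.27e-06).

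Of 8 genes of receptor shedding and turnover, 4 rose and 0 fell against the isotype antibody (median 0.37), and 5 rose and 1 fell against untreated wells, beside 18.2% higher and 18.2% lower of all tested genes in the first comparison and 22.0% and 20.5% in the second. Against the isotype antibody 3 rose and 2 fell with total-count scaling, beside 1565 and 4142 of all genes. Without untreated 7, 5 rose and 2 fell, beside 2977 and 3053 of all genes. Against untreated wells 4 rose and 1 fell with total-count scaling, beside 1940 and 4088 of all genes. Without untreated 7, 6 rose and 0 fell there, beside 3443 and 3323 of all genes. Adam17, the protease that cuts CSF1R from the surface, averaged 329.5 ± 6.13 CPM in PD-L1 antibody wells and 243.5 CPM in isotype antibody wells (log2 fold change 0.44, limma adjusted p = 0.000829). Rhbdf2, which carries ADAM17 to the surface, rose by 1.18 (limma adjusted p = 7.58e-06). Among 6 tested related ligands and chains of 9 listed, 0 rose and 3 fell against the isotype antibody, among them Kitl and the erythropoietin receptor gene Epor (0.295 CPM in PD-L1 antibody wells and 1.57 CPM in isotype antibody wells, limma adjusted p = 0.00367). Against untreated wells 0 rose and 4 fell, and the same shares of all genes stand beside these counts. Both counts include Epor, which was abundant enough to be tested only through the wells without the PD-L1 antibody. Epor could therefore be called only as lower with that antibody, and its calls are no independent support for the difference. In the isotype antibody against untreated wells, 0 genes of any of these 5 lists were called by limma. Without untreated 7 each of the 5 lists had calls, beside 2295 genes called in all. The signalling list then had 11 higher and 1 lower, the feedback list 2 and 2, and the transcription factors 1 and 2. The shedding list had 1 higher and 0 lower, and the related ligands and chains 0 and 2.

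**Figure D4:**
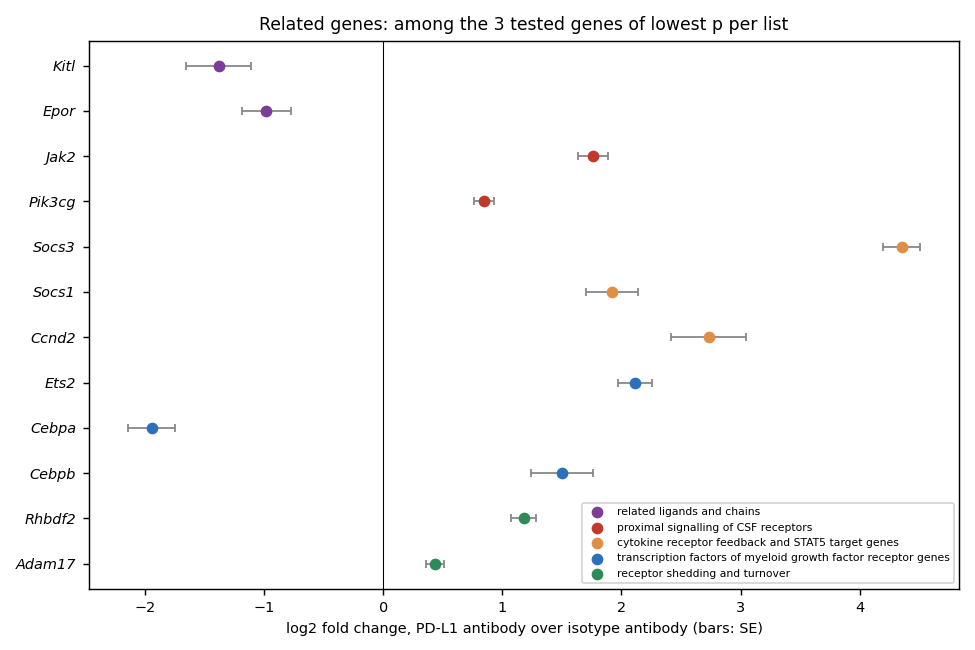
Log2 fold change on the log2(CPM + 1) scale of the PD-L1 antibody over the isotype antibody (horizontal axis, bars of 1 SE) for genes among the 3 tested genes of lowest p in each of 5 lists, coloured by list. Socs3 lies farthest to the right at 4.35, and Kitl, Epor and Cebpa lie left of 0. Epor was abundant enough to be tested only through the wells without the PD-L1 antibody.

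The genes most like each of these across the 9 libraries, by Pearson r of log2(CPM + 1) among 9877 genes of at least 5 CPM, are given as a description over libraries that share groups. Closest to Csf3r were Cep83 (r = 0.983), B4galt5 (0.981) and Il21r (0.976). Csf1 was closest to Ambra1 (0.984), Cd300lf (0.981) and Depdc5 (0.98), and Flt3 to Nup210 (0.983), Fam53b (0.981) and Tbc1d8 (0.978). Among the genes most like Csf2rb was Nomo1 (0.972), and Csf2rb2 was closest to Piezo1 (0.988). Csf2ra was closest to Ecm1 (0.964) and Kit to Arc (0.968). Csf1r reached 0.909 with Rab3d, the lowest best match of these 8 genes.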

How the data were processed

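Libraries were made from oligo(dT)-enriched RNA and read in pairs of 150 bases, per the labels' protocols. Partek and STAR are named, without versions, per the submitters' processing notes; the genome build is not given in the sources used here, but 21574 of 21782 symbols (99.0%) overlapped the RefSeq GRCm38.p6 gene of that name. Per the file headers, each deposited file lists RefSeq transcripts with read counts, average coverage (a signal per exonic base), total exon length and the percent of bases covered. The deposited read counts span introns, so the values analysed were average coverage times exon length divided by 150, for 1 transcript per symbol. Genes were filtered with edgeR's filterByExpr, scaled by TMM (factors of 0.919 to 0.932 for PD-L1 antibody wells and 1.009 to 1.063 otherwise), turned into log2(CPM + 1) and fitted in limma with all 9 libraries. Single ratios were tested by exact permutation. The procedure was tested on simulated data. Alternatives are listed in the closing section. Floors cover counting error only, since reads copied by PCR and lacking molecular identifiers can stem from 1 molecule. The 10 genes, the lists and the markers were chosen with earlier results of these data known; all 10, the 3 tested genes of lowest p per list, and the 3 most alike genes per member were named by rule, some of which are not reported here, and other genes named were chosen after their values were seen. Software was R 4.3.3, limma 3.58.1, edgeR 4.0.16, DESeq2 1.42.0, Python 3.11.15, pandas 2.3.3, numpy 2.4.6 and matplotlib 3.10.9.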

Additional observations from a re-analysis of the deposited data

How the results depend on the processing

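No paired analysis was possible because the groups share no replicate numbers. The alternatives were 2 other scalings, no filter, 2 other pseudocounts, the longest transcript, edgeR and DESeq2 on span reads, only the 2 groups compared, each library left out, and, chosen after seeing the data, the beta chains summed. Genes of the list called for the PD-L1 over the isotype antibody numbered 5 (2 higher, 3 lower) with total-count scaling and 3 to 5 over single libraries left out, 5 being without untreated 7. Over untreated wells they numbered 3 without a filter, 2 with edgeR and 3 to 6 over single libraries left out, 3 being without PD-L1 antibody 1 or 3. For the isotype antibody over untreated wells they numbered 0 to 4 over single libraries left out. Among all genes that comparison gave 2 calls with total-count scaling, 2 with edgeR, 138 with DESeq2 (74 higher, 64 lower), 0 with only those groups fitted, and 0 to 2295 over single libraries left out. Single log2 fold changes kept direction and call in 464 cases, gained a call in 13, lost one in 19 and changed sign in 13, none of which were calls. Over single libraries left out, the genes that changed sign ranged as follows for the PD-L1 over the isotype antibody: Csf1r from -0.156 to 0.224 and Csf2rb from -0.0465 to 0.192. Csf1r ranged from -0.129 to 0.253 for the PD-L1 antibody over untreated wells, and for the isotype antibody over untreated wells Csf1r ranged from -0.032 to 0.0771, Csf3r from -0.0225 to 0.0722 and Kit from -0.0525 to 0.339. The sign changes for the PD-L1 over the isotype antibody were Csf1r at -0.129 (total counts), -0.156 (without PD-L1 antibody 1) and -0.00433 (without isotype antibody 4), and Csf2rb at -0.102 (total counts), -0.00432 (without PD-L1 antibody 3), -0.0465 (without isotype antibody 4) and -0.0361 (chains summed). Over untreated wells Csf1r was at -0.0755 (total counts) and -0.129 (without PD-L1 antibody 1). For the isotype antibody over untreated wells they were Csf1r at -0.032 (without isotype antibody 5), Csf3r at -0.0225 (without untreated 8), and Kit at -0.0374 (without isotype antibody 4) and -0.0525 (without untreated 9). The cause of these shifts was not tested. Depth limited Csf2 and, outside the PD-L1 antibody wells, Csf3.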
